A study of Mus musculus with 14 samples.

Results

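The mitochondrial ribosomal protein genes were followed across 4 groups of mouse T cell libraries measured by RNA sequencing. They were taken by name, as the symbols that begin with Mrpl or Mrps and go on with a number and at most 1 letter, pseudogenes left out. This rule found 78 genes among the 55291 symbols of the deposited tables, 51 of the large subunit, 26 of the small subunit and Mrps36, now known as a part of the alpha-ketoglutarate dehydrogenase complex. Despite their symbols, Mrps18a and Mrps30 belong to the large subunit and were counted there. All 78 passed the low-count filter in both comparisons.

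In the first experiment, whole splenocytes were cultured from OT-1 mice, a strain with a transgenic receptor on its CD8+ T cells that sees an ovalbumin peptide. They received 1 µg/mL of that peptide and 200 U/mL interleukin-2 for 3 days and were expanded for 4 more. The medium held either ND-646 at 100 nM, which blocks acetyl-CoA carboxylase and so fatty acid synthesis, or the solvent DMSO as vehicle (n = 4 libraries each). The second experiment took CD8+ T cells sorted from the spleens (n = 3) and the MCA205 fibrosarcomas (n = 3) of C57BL/6 mice 14 days after tumour cells were placed under the skin, with no drug, and the tumour samples are labelled as pooled. The labels give the genotype of every group as WT, also for the OT-1 cultures, give no age, and call all libraries CD8+ T cells although the first experiment cultured whole splenocytes.

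Mitochondrial ribosomes, or mitoribosomes, translate the few mRNAs of the mitochondrial genome, which encode core subunits of the respiratory chain and ATP synthase. Their proteins are all encoded in the nucleus, made in the cytosol and imported, and they join mitochondrially encoded ribosomal RNA in a small subunit that reads the mRNA and a large subunit that forms the peptide bonds. Many have bacterial counterparts and others exist only in mitochondria. Activated T cells build up mitochondria, and blocking mitochondrial translation is known to limit their proliferation and sustained killing.

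Promoters are shown for 5 members whose values are described below, to place their start sites beside the letters of factors known to drive such genes. Each line gives the 130 bases before the start, read 5′ to 3′ on the strand of the gene, from the RefSeq promoter table of GRCm38.p6. Capitals mark CCGGAAG, the core bound by GABPA and other ETS factors, or the palindrome of NRF1, the 10 capitals in the line of Mrpl32. The 5 were chosen after values and matches were seen.
Mrpl51 (chr6:125192070-125192199, plus strand): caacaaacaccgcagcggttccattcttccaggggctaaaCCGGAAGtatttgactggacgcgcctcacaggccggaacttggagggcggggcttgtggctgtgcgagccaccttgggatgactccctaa
Mrpl32 (chr13:14613038-14613167, minus strand): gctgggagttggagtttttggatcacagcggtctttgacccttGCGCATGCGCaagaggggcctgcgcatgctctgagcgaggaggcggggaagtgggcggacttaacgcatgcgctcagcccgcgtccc
Mrps6 (chr16:92058206-92058335, plus strand): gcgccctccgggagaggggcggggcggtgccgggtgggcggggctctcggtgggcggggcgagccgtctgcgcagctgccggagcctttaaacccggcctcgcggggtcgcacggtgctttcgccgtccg
Mrpl58 (chr11:115403622-115403751, plus strand): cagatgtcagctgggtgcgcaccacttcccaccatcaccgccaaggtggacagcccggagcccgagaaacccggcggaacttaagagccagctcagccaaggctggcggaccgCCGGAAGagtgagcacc
Mrpl24 (chr3:87919414-87919543, plus strand): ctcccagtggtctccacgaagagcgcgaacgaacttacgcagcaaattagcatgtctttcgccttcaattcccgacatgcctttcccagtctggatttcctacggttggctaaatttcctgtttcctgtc

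A RefSeq promoter, from 250 bases before to 50 after the start, was matched for 69 of the 78 members. In 49 of their 75 promoters the bases after the start lay in a GENCODE M21 transcript of the gene. The other starts were not checked further. On either strand, CCGGAAG was found in 26 of the 69 (37.7%), against 9.93% of 27025 genes with a promoter in the table and 12.9% of the 17492 protein-coding ones. AAGATGGCG, the letters of YY1, stood in 8 (11.6%, against 1.64% of all genes and 2.14% of protein-coding ones). The NRF1 palindrome stood in 3 (4.35%, against 1.07% and 1.47%), and the E-box CACGTG in 5 (7.25%, against 8.09% and 8.91%). CCGGAAG ends and AAGATGGCG begins with AAG, so matches of these motifs can overlap by those letters. Of the 26 members with CCGGAAG, 1 was called higher and 5 lower under ND-646, and 11 higher and 4 lower in tumour. Of the 43 without it, 6 and 8 were called under ND-646 and 19 and 13 in tumour. Of all genes, 29.8% were called higher and 26.5% lower under ND-646, and 43.6% and 40.2% in tumour. With CD8 identity genes held constant, 25 of the 26 with it and 42 of the 43 without it rose in tumour and none fell. These matches describe letters and not binding.

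Levels are given as CPM, counts per 1e+06 of the scaled library. The libraries held 23.5 to 33.8 × 1e+06 counts in the first experiment and 19.6 to 21.02 × 1e+06 in the second, and 3 counts, the most that a count of 0 allows, were worth 0.0878 to 0.154 CPM. CD8 T cell markers were present in every group, with Cd8a at 674 to 787 CPM in vehicle, 470 to 482 in ND-646, 1530 to 1564 in spleen and 776 to 1079 in tumour libraries. ND-646 libraries 1 and 4 resembled each other, as did 2 and 3 (chi-square per degree of freedom 5.07 and 3.65, against 7.37 to 11.3 across these pairs). In 35 of the 78 members, 12 of the 25 called under ND-646, libraries 1 and 4 lay on one side of 2 and 3. Those 12 are also given without each pair. The share of all genes split in this way was not counted, so the split is not read as a trait of the members. Tumour libraries held markers of other cells. The 19 fibroblast and fibrosarcoma markers summed to 12778 to 18441 CPM there and 1.85 to 19.5 CPM in spleen, all 18 tested were higher, and none of the 19 was at 0 in all libraries. The smaller sums of the other lists in spleen and tumour were 8.39 to 11.4 and 34.7 to 51.4 CPM for macrophages, monocytes and neutrophils, 65.9 to 79.4 and 103 to 118 for dendritic cells, 793 to 821 and 92.0 to 101 for B cells, 6.49 to 9.03 and 66.7 to 103 for NK cells, 5.14 to 8.39 and 41.7 to 46.3 for CD4 T cells, 0.699 to 1.74 and 34.6 to 43.6 for endothelium and 0.193 to 1.247 and 0.247 to 0.462 for red cells and platelets. In vehicle and ND-646 these sums were 10.5 to 11.3 and 9.75 to 11.3 CPM for fibroblasts, 18.2 to 20.3 and 5.84 to 7.55 for macrophages, monocytes and neutrophils, 87.1 to 94.01 and 70.2 to 85.9 for dendritic cells, 115 to 131 and 148 to 173 for B cells, 30.8 to 34.3 and 13.8 to 18.6 for NK cells, 117 to 127 and 149 to 164 for CD4 T cells, 1.24 to 1.33 and 0.498 to 0.764 for endothelium and 0.725 to 1.29 and 0.0636 to 0.468 for red cells and platelets. By gene, 1 of 6 tested B cell markers rose under ND-646 and 4 fell (median log2 fold change -1.98). Of 4 tested CD4 T cell markers, 1 rose and 3 fell there (median -0.93). The sums of these lists thus moved against most of their tested genes. The part of all these other cells in the values of the members was not tested.

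Levels can be compared between genes only per length of transcript. Per kilobase of coding transcript, Mrpl30 led in vehicle and ND-646 libraries, at 183 ± 6.16 and 190 ± 4.07 CPM per kb (SD, n = 4 each), followed by Mrpl33 at 135 ± 1.07 and 135 ± 5.16. Both are proteins of the large subunit with bacterial counterparts. In spleen, Mrpl24, Mrpl30 and Mrpl33 stood at 91.1 ± 3.04, 86.7 ± 1.99 and 80.8 ± 5.09 CPM per kb (SD, n = 3), and the libraries of Mrpl24 and Mrpl30 overlapped. In tumour libraries Mrps6 led at 84.1 ± 11.2, with Mrpl33 at 78.9 ± 6.07, whose libraries overlapped with those of Mrps6. The lowest members were Mrpl47, at 5.37 ± 0.187 in vehicle and 5.21 ± 0.446 in ND-646, and Mrpl1, at 3.57 ± 0.245 in spleen and 3.78 ± 0.511 in tumour libraries. The median member stood at 28.3, 27.5, 18.1 and 24.1 CPM per kb in vehicle, ND-646, spleen and tumour libraries.

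Together the members made up a small share of each library. They held 0.297 to 0.308% of all counts in vehicle, 0.301 to 0.319% in ND-646, 0.229 to 0.232% in spleen and 0.236 to 0.240% in tumour libraries. The vehicle and ND-646 ranges overlapped, and all tumour libraries lay above all spleen libraries. Large-subunit members held 1.89 to 1.98 times the counts of small-subunit members in every library. Cytosolic ribosomal proteins took 9.76 to 10.1% in vehicle, 9.96 to 11.1% in ND-646, 10.9 to 11.2% in spleen and 6.25 to 6.83% in tumour libraries. In tumour libraries their share was below that in spleen, while that of the mitochondrial set was slightly above it. In bulk RNA, fewer cells of a type and less RNA per cell cannot be told apart.

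**Figure D1:**
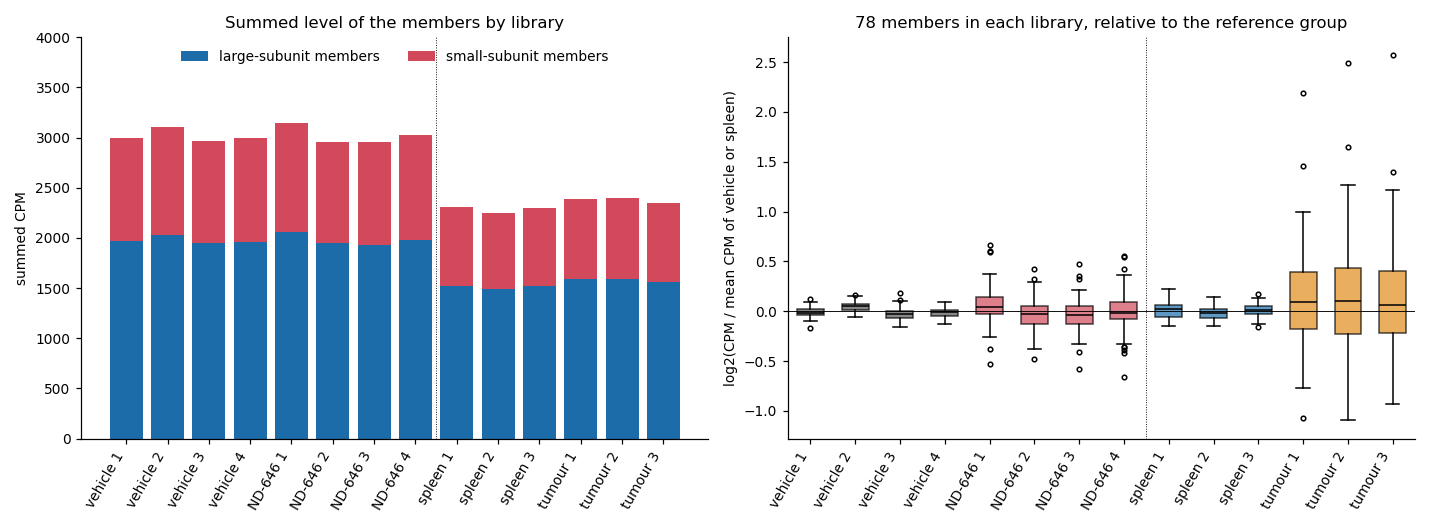
Left, summed CPM of the large-subunit and small-subunit members in each of the 14 libraries (stacked bars from 0, Mrps36 left out). Right, log2 of each member's CPM over the mean of vehicle or of spleen (boxes, median and quartiles; whiskers, 1.5 interquartile ranges; circles, members beyond them). The 78 members spread little around 0 in ND-646 libraries (medians -0.03 to 0.04) and widely in tumour libraries (medians 0.06 to 0.10).

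Cultures with and without ND-646 show how transcripts of the activated T cells differed when acetyl-CoA carboxylase was blocked. Among the members, 12 rose and 13 fell, by less than 1.5-fold in every case. The strongest fall was that of Mrps21 and the strongest rises were those of Mrps6, Mrps28 and Mrpl32. In edgeR's quasi-likelihood test with an adjusted p below 0.05, 32.1% of members were called, against 56.3% of the 14251 genes tested and 63.2% of the 7022 genes in the members' range of mean CPM (29.8% of all genes higher and 26.5% lower). With CD8 identity genes held constant, 17 rose and 11 fell (31.4% of all genes higher and 24.4% lower). Their median log2 fold change was -0.02 (all genes 0.01) and the SD of their log2 fold changes was 0.17 (all genes 0.61), with a median SE of 0.051 (all genes 0.064). No member changed by 1.5-fold or more, against 15.9% of all genes. In 9 members every ND-646 library lay above every vehicle library and in 12 every one lay below (27% and 24.1% of all genes).

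**Figure D2:**
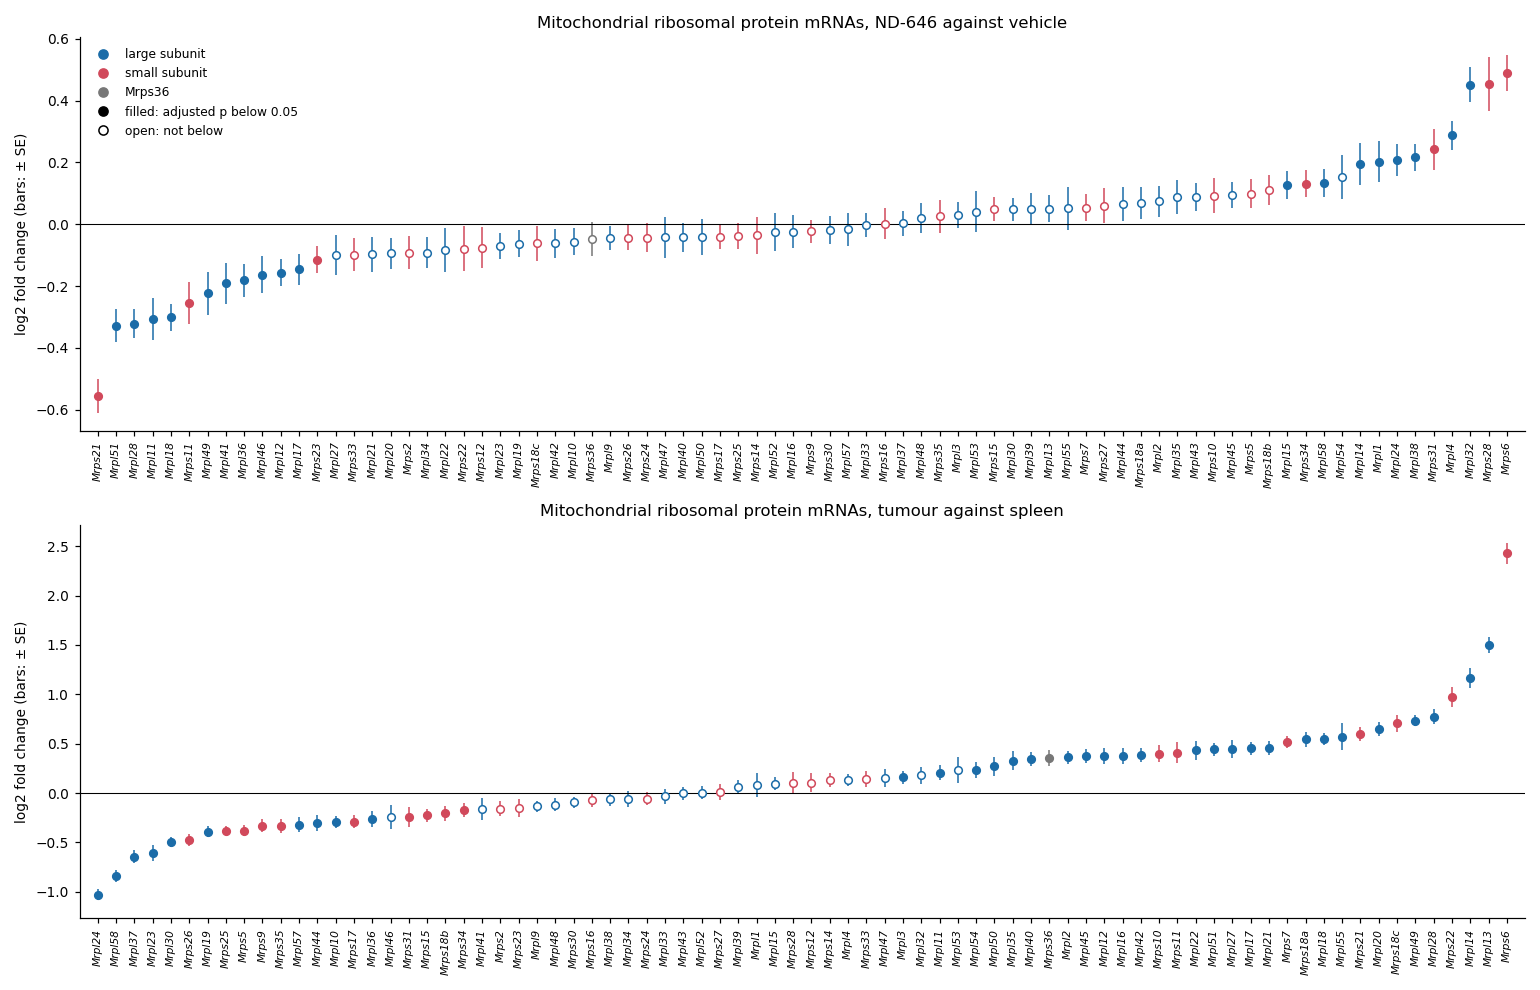
Log2 fold change of each of the 78 members (points, bars ± SE), ranked, for ND-646 against vehicle (top) and tumour against spleen (bottom), with large-subunit members in blue, small-subunit members in red, Mrps36 in grey and filled points for an adjusted p below 0.05. The axis of the lower panel covers a wider range, and its 0 is that of TMM scaling: scaled to CD8 identity genes, all members but Mrpl24 lie above 0.

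Mrps21, a small-subunit protein with a bacterial counterpart, stood at 34.6, 32.8, 31.5 and 33.2 CPM in the vehicle and 22.9, 23.7, 22.2 and 20.98 CPM in the ND-646 libraries (log2 fold change -0.56 ± 0.054, SE, adjusted p = 9.35e-08). The groups did not overlap. Mrpl51, a mitochondria-specific protein of the large subunit, was at 35.9, 38.6, 33.8 and 33.8 CPM and then 27.3, 28.5, 28.8 and 28.8 CPM (log2 fold change -0.33 ± 0.053, SE, adjusted p = 3.49e-05). Mrpl28 was at 40.8, 42.7, 40.9 and 39.7 CPM in vehicle and 34.5, 31.6, 32.7 and 32.7 CPM in ND-646 libraries (log2 fold change -0.32 ± 0.046, SE, adjusted p = 1.01e-05). In both genes all 4 ND-646 libraries lay below all vehicle libraries. Mrpl18, which in bacteria binds the small ribosomal RNA of the large subunit, was at 64.1, 66.8, 64.3 and 61.4 CPM in vehicle and 54.5, 53.7, 51.1 and 48.9 CPM in ND-646 libraries (log2 fold change -0.30 ± 0.044, SE, adjusted p = 1.4e-05). Mrpl11, a protein of the stalk base where translation factors dock, was at 23.0, 25.5, 21.7 and 20.8 CPM and 19.0, 18.4, 19.3 and 17.1 CPM (log2 fold change -0.31 ± 0.068, SE, adjusted p = 0.000861). The groups were apart for both.

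Further members fell by less. Mrps11, of the small-subunit platform, was at 24.0, 25.9, 24.2 and 26.0 CPM in vehicle and 23.3, 19.6, 18.9 and 22.3 CPM in ND-646 libraries (log2 fold change -0.25 ± 0.068, SE, adjusted p = 0.00404), and its 4 ND-646 values split along the library pairs (log2 fold change -0.40 without ND-646 libraries 1 and 4, edgeR adjusted p = 1.18e-05, and -0.13 without 2 and 3, adjusted p = 0.0916). Mrpl49 was at 20.9, 21.9, 25.4 and 21.1 CPM and 20.3, 19.2, 19.5 and 17.4 CPM (log2 fold change -0.22 ± 0.070, SE, adjusted p = 0.0112), with vehicle library 3 the highest, and without that library it did not pass (log2 fold change -0.16, edgeR adjusted p = 0.0556). Mrpl41 was at 22.7, 23.5, 20.8 and 21.6 CPM and 20.7, 20.2, 19.4 and 17.3 CPM (log2 fold change -0.19 ± 0.066, SE, adjusted p = 0.0191) and did not pass without vehicle library 1 (-0.18), vehicle library 2 (-0.16) or ND-646 library 4 (-0.15). Both are mitochondria-specific proteins of the large subunit. Mrpl12, which binds as the stalk of the large subunit and is also known as a partner of the mitochondrial RNA polymerase, fell from 72.3 ± 3.31 to 64.9 ± 2.39 CPM (SD, n = 4 each; log2 fold change -0.16 ± 0.043, SE, adjusted p = 0.00475). Mrpl36, Mrpl46, Mrpl17 and Mrps23 also fell, with log2 fold changes of -0.18, -0.16, -0.15 and -0.11. Mrpl17 had overlapping groups. Single libraries decided some of these calls: Mrpl46 was lost without vehicle library 3 or ND-646 library 2 or 3 (log2 fold changes over all 8 fits -0.21 to -0.13), Mrpl17 without vehicle library 2 or ND-646 library 4 (-0.20 to -0.12), and Mrps23 in 5 fits, those without vehicle library 2, 3 or 4 or ND-646 library 2 or 3 (-0.14 to -0.09). By library pairs, the log2 fold change of Mrpl46 was -0.26 without ND-646 libraries 1 and 4, edgeR adjusted p = 0.000907, and -0.08 without 2 and 3, adjusted p = 0.298. That of Mrps23 was -0.18 without ND-646 libraries 1 and 4, edgeR adjusted p = 0.00218, and -0.06 without 2 and 3, adjusted p = 0.308. Mrpl17 did not pass without libraries 1 and 4 (-0.12). Mrpl46 and Mrps23 did not pass with CD8 identity genes held constant either, and Mrps23 did not pass with no filter on low counts (-0.11, edgeR adjusted p = 0.0635).

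Mrps6, a small-subunit protein with a bacterial counterpart, rose most. It was at 25.4, 25.4, 25.2 and 25.1 CPM in the vehicle and 38.3, 31.7, 35.1 and 36.8 CPM in the ND-646 libraries (log2 fold change 0.49 ± 0.057, SE, adjusted p = 9.41e-07). The vehicle libraries lay close together and every ND-646 library lay above them, with libraries 1 and 4 the higher (log2 fold change 0.39 without ND-646 libraries 1 and 4, edgeR adjusted p = 3.78e-06, and 0.58 without 2 and 3, adjusted p = 4.06e-09). Mrps28 was at 10.9, 11.5, 10.7 and 11.3 CPM and 17.6, 13.1, 13.9 and 16.2 CPM (log2 fold change 0.45 ± 0.086, SE, adjusted p = 0.000206), higher in ND-646 libraries 1 and 4 than in 2 and 3 (log2 fold change 0.27 without ND-646 libraries 1 and 4, edgeR adjusted p = 0.00641, and 0.61 without 2 and 3, adjusted p = 2.34e-07). Mrpl32, which in yeast and mammals must be cut by a mitochondrial protease before it enters the large subunit, was at 26.6, 29.2, 26.1 and 27.3 CPM and 41.4, 36.7, 34.9 and 36.6 CPM (log2 fold change 0.45 ± 0.058, SE, adjusted p = 2.63e-06). Neither gene's groups overlapped.

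Mrpl4, which lines the peptide tunnel, was at 58.5, 59.8, 60.6 and 64.8 CPM in vehicle and 78.03, 71.5, 69.7 and 78.2 CPM in ND-646 libraries (log2 fold change 0.29 ± 0.047, SE, adjusted p = 4.65e-05), again higher in libraries 1 and 4 (log2 fold change 0.20 without ND-646 libraries 1 and 4, edgeR adjusted p = 0.000872, and 0.36 without 2 and 3, adjusted p = 2.87e-07). Mrpl38, a mitochondria-specific member, was at 31.3, 31.4, 31.1 and 31.6 CPM and 36.8, 35.4, 36.3 and 37.1 CPM (log2 fold change 0.22 ± 0.044, SE, adjusted p = 0.000371), narrow and apart in both groups (log2 fold change 0.18 without ND-646 libraries 1 and 4, edgeR adjusted p = 0.00601, and 0.24 without 2 and 3, adjusted p = 0.000630). Mrpl24 was at 74.7, 79.1, 76.0 and 73.4 CPM and 93.3, 82.7, 79.5 and 94.8 CPM (log2 fold change 0.21 ± 0.053, SE, adjusted p = 0.00312) and followed the same pairs of libraries (0.08 without ND-646 libraries 1 and 4, edgeR adjusted p = 0.120, and 0.31 without 2 and 3, adjusted p = 8.37e-07). Each of these genes was higher in every ND-646 library than in any vehicle library. Mrps31, a mitochondria-specific protein of the small subunit, was at 17.4, 19.4, 20.2 and 17.5 CPM and 24.1, 22.1, 20.8 and 20.98 CPM (log2 fold change 0.24 ± 0.067, SE, adjusted p = 0.00500). Mrpl1, of the stalk where spent tRNA leaves, was at 20.4, 22.1, 19.99 and 19.5 CPM and 26.4, 22.5, 22.1 and 23.5 CPM, with overlapping groups (log2 fold change 0.20 ± 0.066, SE, adjusted p = 0.0138), and did not pass without ND-646 library 1 (0.13, edgeR adjusted p = 0.0784) or without 1 and 4 together (0.10 without ND-646 libraries 1 and 4, edgeR adjusted p = 0.197, and 0.29 without 2 and 3, adjusted p = 0.00130).

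Mrpl14, Mrpl58, Mrps34 and Mrpl15 rose least. Their log2 fold changes were 0.20 ± 0.068, 0.13 ± 0.045, 0.13 ± 0.044 and 0.13 ± 0.045 (SE), with edgeR adjusted p of 0.0197, 0.0171, 0.0172 and 0.0232. Each of these calls was lost in 3 or 4 of the 8 fits that left out a library, namely without vehicle library 1 or 3 or ND-646 library 2 for Mrpl14 (log2 fold changes down to 0.14), without vehicle library 1 or ND-646 library 1 or 4 for Mrpl58 (down to 0.11), without vehicle library 3 or 4 or ND-646 library 1 or 4 for Mrps34 (down to 0.09), and without vehicle library 4 or ND-646 library 1 or 4 for Mrpl15 (down to 0.09). By library pairs, the log2 fold change of Mrpl58 was 0.11 without ND-646 libraries 1 and 4, edgeR adjusted p = 0.0893, and 0.14 without 2 and 3, adjusted p = 0.0317. For Mrps34 it was 0.06 without ND-646 libraries 1 and 4, edgeR adjusted p = 0.284, and 0.19 without 2 and 3, adjusted p = 0.00172. For Mrpl15 it was 0.06 without ND-646 libraries 1 and 4, edgeR adjusted p = 0.298, and 0.18 without 2 and 3, adjusted p = 0.00364. None of these 3 passed in DESeq2's Wald test (0.12, 0.12 and 0.11, adjusted p = 0.0558, 0.0526 and 0.0677). Mrpl58 is a peptidyl-tRNA hydrolase that became part of the large subunit. It was at 34.03, 37.7, 36.3 and 35.9 CPM in vehicle and 39.8, 39.4, 39.1 and 39.5 CPM in ND-646 libraries, apart but close.

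**Figure D3:**
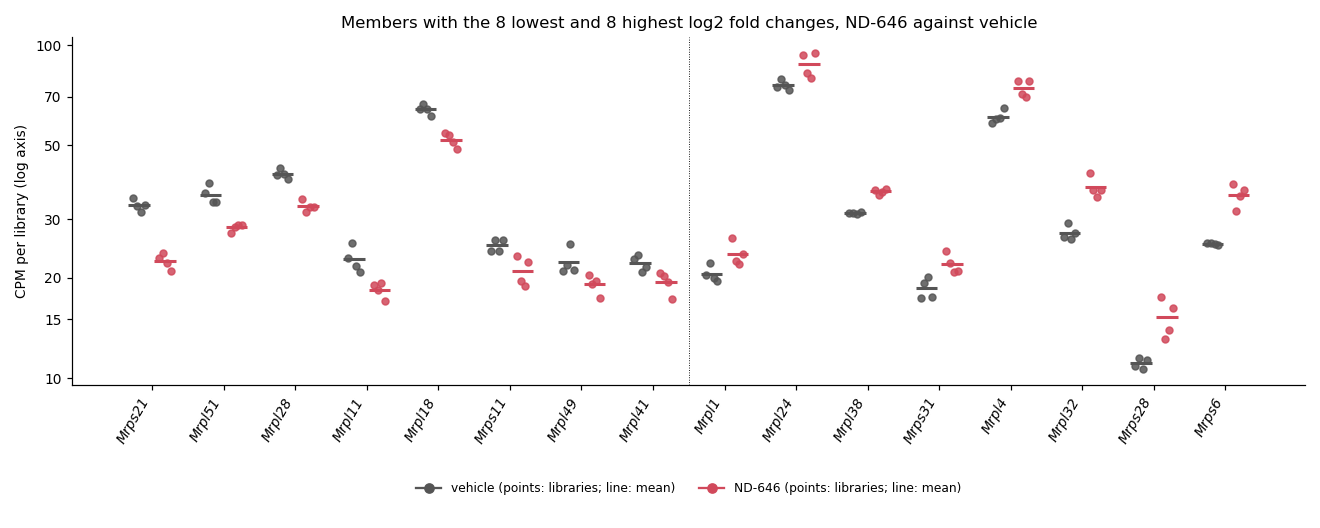
CPM per library (log axis) of the 8 members with the lowest (left) and the 8 with the highest (right) log2 fold change under ND-646 (points, libraries; lines, group means). Mrps21 lies at 31.5 to 34.6 CPM in vehicle and 20.98 to 23.7 CPM in ND-646 libraries, and Mrpl1 is the one gene shown whose groups touch.

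Both subunits moved in both directions. Of the 51 large-subunit members 8 rose and 10 fell, and of the 26 small-subunit members 4 rose and 3 fell, with median log2 fold changes of -0.02 and -0.03. By ancestry, 8 rose and 8 fell of the 46 with a bacterial counterpart, and 4 rose and 5 fell of the 31 specific to mitochondria. Among all genes, 29.8% were called higher and 26.5% lower. The Mrps18 paralogs, which take different places in the ribosome, passed no test, at 0.07 ± 0.052 for Mrps18a, 0.11 ± 0.048 for Mrps18b and -0.06 ± 0.057 for Mrps18c (SE, edgeR adjusted p = 0.277, 0.0578 and 0.378). Mrps18b passed with the CD8 scaling (0.13) and without vehicle library 2 or ND-646 library 3 (0.14 and 0.13). Mrps30 (-0.02 ± 0.045) and Mrps36 (-0.05 ± 0.054) did not pass (adjusted p = 0.736 and 0.472), nor did Mrpl30 and Mrpl9, which with Mrpl24 had the highest mean CPM, at 121 ± 4.08 and 126 ± 2.70 CPM for Mrpl30 and 70.8 ± 1.70 and 68.6 ± 1.79 CPM for Mrpl9 (vehicle and ND-646, SD, n = 4 each). Of the 25 calls, 15 held in all 8 fits that left out a library, 7 higher and 8 lower. Without ND-646 libraries 1 and 4, 7 members rose and 20 fell, and without 2 and 3, 17 rose and 10 fell.

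CD8+ T cells of the tumour were compared with those of the spleen. Among the members, 32 rose and 20 fell, led by Mrps6, Mrpl13 and Mrpl14 on one side and Mrpl24 and Mrpl58 on the other. That is 66.7% of members, against 83.8% of the 15042 genes tested and 85% of the 6458 genes in the members' range of mean CPM (43.6% of all genes higher and 40.2% lower). Directions depend on the scaling: with CD8 identity genes held constant, the median of all genes moved up by 0.98 on the log2 scale, and 76 members rose and none fell (69.8% of all genes higher and 11.9% lower), with a median log2 fold change of 1.09 in place of 0.10. The SD of the members' log2 fold changes was 0.51, against 2.98 for all genes, with a median SE of 0.073 (all genes 0.11). Changes of 1.5-fold or more were called in 9 members that rose and 4 that fell, and of 2-fold or more in 3 and 1, while 62.9% and 46.7% of all genes passed these sizes. In 36 members every tumour library lay above every spleen library and in 26 every one lay below (44.6% and 41.6% of all genes).

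Mrps6 was at 13.1, 14.3 and 12.3 CPM in the 3 spleen libraries and rose to 60.5, 74.6 and 78.4 CPM in the 3 tumour libraries, 5.38-fold higher (log2 fold change 2.43 ± 0.11, SE, adjusted p = 4.45e-08). Tumour library 1 was the lowest of the 3. Mrpl13, a core protein of the large subunit, was at 22.2, 19.5 and 21.3 CPM and 57.6, 65.7 and 55.3 CPM (log2 fold change 1.501 ± 0.084, SE, adjusted p = 1.44e-07). Mrpl14, at the side of the large subunit that faces the small one, was at 11.4, 9.79 and 10.4 CPM and 21.005, 25.3 and 24.4 CPM (log2 fold change 1.16 ± 0.10, SE, adjusted p = 4.03e-06). The groups lay far apart for all 3 genes. Scaled to CD8 identity genes, the log2 fold changes were 3.43, 2.50 and 2.16.

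These genes share exons with neighbours, chosen here after their values were seen. In GENCODE M21, Mrps6 overlaps Slc5a3, a myo-inositol transporter, on the same strand, and Slc5a3 rose from 16.7 ± 1.54 CPM in spleen to 117 ± 19.9 CPM in tumour (SD, n = 3; log2 fold change 2.81 ± 0.14, SE). Under ND-646 the pair moved in opposite directions, since Slc5a3 fell (-0.28 ± 0.093) where Mrps6 rose. Mrpl13 overlaps Mtbp on the opposite strand, at 11.7 ± 0.429 and 38.1 ± 3.13 CPM (1.70 ± 0.084). Mrpl14 overlaps Tmem63b (0.84 ± 0.089) and Mrpl24 overlaps Rrnad1 (-0.74 ± 0.094), both also on the opposite strand. These 4 neighbours were each called in the same direction as the member in tumour under TMM scaling (with CD8 identity genes held constant, Rrnad1 was at 0.23 and Mrpl24 at -0.04). Reads in bases shared on the same strand, as by Mrps6 and Slc5a3, cannot be told apart by strand. For partners on opposite strands, no source used here says whether counting used the strand, so their reads cannot be told apart either. Over all 31 pairs of a member and a tested neighbour that share exon bases, both genes were called in tumour in 20, in the same direction in 14 and in opposite directions in 6 under TMM scaling. The 6 include Mrps7 at 0.52 and Gga3 at -1.52, Mrps18c at 0.71 and Gm43511 at -0.87, and Mrpl44 at -0.30 and Wdfy1 at 0.93 (log2 fold changes). Under ND-646 both were called in 7 pairs, 4 in the same and 3 in opposite directions. Mrpl46 and Mrps11 overlap each other, so their pair is counted from either side, in the 31 and in these 4. Without this repeat, same and opposite directions were equally frequent under ND-646. Among all genes, 43.6% were called higher and 40.2% lower in tumour, and 29.8% and 26.5% under ND-646. No such tally was made over pairs of other genes or with the CD8 scaling, so these counts are not read as a trait of the members. In all, 33 members share exon bases with another gene, 8 on the same and 28 on the opposite strand. Apart from such neighbours, 19 match a transcript of another gene with at least 95% identity over 200 bases. Such a match can be a shared stretch and not a copy of the gene: Mrps26 matched 26 genes, among them Hdac1 and Ipo7.

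Mrps22, a mitochondria-specific protein of the small subunit, was at 8.05, 8.89 and 8.08 CPM and then, in tumour, at 16.3, 17.3 and 15.4 CPM (log2 fold change 0.97 ± 0.10, SE, adjusted p = 1.21e-05), and overlaps no other gene's exons. Mrpl28, which fell under ND-646, was at 31.1, 27.1 and 26.0 CPM and 47.9, 48.6 and 47.6 CPM (log2 fold change 0.77 ± 0.074, SE, adjusted p = 6.62e-06). Mrpl49 was at 22.3, 22.5 and 23.0 CPM and 38.5, 36.9 and 37.3 CPM (log2 fold change 0.73 ± 0.060, SE, adjusted p = 2.23e-06). In all 3, every tumour library lay above every spleen library. Mrpl49 overlaps Syvn1 on the opposite strand, and Syvn1 rose in tumour as well (0.71 ± 0.051, SE). Under ND-646 Syvn1 rose (0.16 ± 0.052) where Mrpl49 fell. Mrps18c was at 14.1, 14.9 and 14.96 CPM and 25.9, 23.8 and 22.04 CPM (log2 fold change 0.71 ± 0.087, SE, adjusted p = 3.98e-05). Mrpl20 was at 20.7, 18.9 and 19.0 CPM and 30.3, 31.0 and 30.5 CPM (log2 fold change 0.65 ± 0.069, SE, adjusted p = 1.42e-05). The groups were apart here too. With CD8 identity genes held constant, the log2 fold changes of these members ran from 1.64 for Mrpl20 to 1.96 for Mrps22. The remaining 24 members that rose had log2 fold changes of 0.16 (Mrpl3) to 0.60 (Mrps21).

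Mrpl24, which in bacteria starts the folding of the large subunit, was at 113, 115 and 108 CPM in the spleen group and 53.5, 52.5 and 58.7 CPM in the tumour group, 2.04-fold lower (log2 fold change -1.03 ± 0.057, SE, adjusted p = 1.43e-07). Mrpl58 was at 60.1, 57.6 and 57.0 CPM and 34.2, 31.3 and 31.9 CPM (log2 fold change -0.84 ± 0.058, SE, adjusted p = 6.28e-07). Both groups were narrow and far apart. Mrpl37, a mitochondria-specific protein, was at 55.4, 54.9 and 53.9 CPM and 38.2, 33.8 and 33.1 CPM (log2 fold change -0.64 ± 0.066, SE, adjusted p = 1.09e-05). Mrpl23, at the exit of the peptide tunnel, was at 38.4, 36.6 and 37.0 CPM and 26.0, 25.9 and 21.7 CPM (log2 fold change -0.60 ± 0.081, SE, adjusted p = 7.66e-05). In each, all 3 tumour libraries lay below all spleen libraries. Mrpl30, the leading member per kilobase in culture, was at 56.0, 57.5 and 58.6 CPM and 40.9, 41.9 and 39.2 CPM (log2 fold change -0.50 ± 0.053, SE, adjusted p = 1.45e-05). Mrps26 was at 57.4, 52.4 and 55.1 CPM and 41.4, 39.6 and 37.3 CPM (log2 fold change -0.48 ± 0.062, SE, adjusted p = 5.9e-05). Mrpl19 was at 35.7, 36.1 and 36.1 CPM and 27.6, 27.6 and 27.1 CPM (log2 fold change -0.39 ± 0.057, SE, adjusted p = 0.000140). Again no tumour library reached the spleen values. Mrps25, like Mrps26 specific to mitochondria, was at 73.8, 72.1 and 69.2 CPM and 55.2, 55.2 and 54.8 CPM (log2 fold change -0.38 ± 0.048, SE, adjusted p = 5.04e-05). With CD8 identity genes held constant these 8 turned positive or came close to 0, at -0.04 for Mrpl24, 0.14 for Mrpl58 and 0.34 to 0.61 for the others.

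The other 12 that fell were Mrps5, Mrps9, Mrps35, Mrpl57, Mrpl44, Mrpl10, Mrps17, Mrpl36, Mrps31, Mrps15, Mrps18b and Mrps34, with log2 fold changes of -0.38 (Mrps5) to -0.17 (Mrps34). All 12 were positive with CD8 identity genes held constant, from 0.61 for Mrps5 to 0.82 for Mrps34. Under TMM scaling Mrpl44 and Mrps15 did not pass without spleen library 3 (-0.24 and -0.19). Mrpl36 was lost without spleen library 1, spleen library 3 or tumour library 3 (-0.22, -0.22 and -0.18). Mrps18b was lost in 4 of the 6 fits that left out a library (all but those without spleen library 2 or tumour library 2, down to -0.13), Mrps34 in 5 (all but that without spleen library 2, down to -0.10) and Mrps31 in all 6 (down to -0.15). These 3 were also lost under most of the 6 other settings with all libraries, the CD8 scaling aside. Mrps34 was called in 0 of these 6, Mrps18b in 2 and Mrps31 in 1. In DESeq2's Wald test they were at -0.11, -0.14 and -0.18 (adjusted p = 0.283, 0.165 and 0.203), and Mrpl36 and Mrps15 did not pass there either (-0.20 and -0.16, adjusted p = 0.0692 and 0.0865). Of all 52 calls, 42 held in every fit that left out a library, 28 higher and 14 lower. Those lost among the members that rose were Mrpl11, Mrpl50 and Mrpl54, each without spleen library 2 (edgeR log2 fold changes down to 0.18, 0.23 and 0.19), and Mrpl3, lost without spleen library 1 or 2 or tumour library 2 or 3 (down to 0.14).

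**Figure D4:**
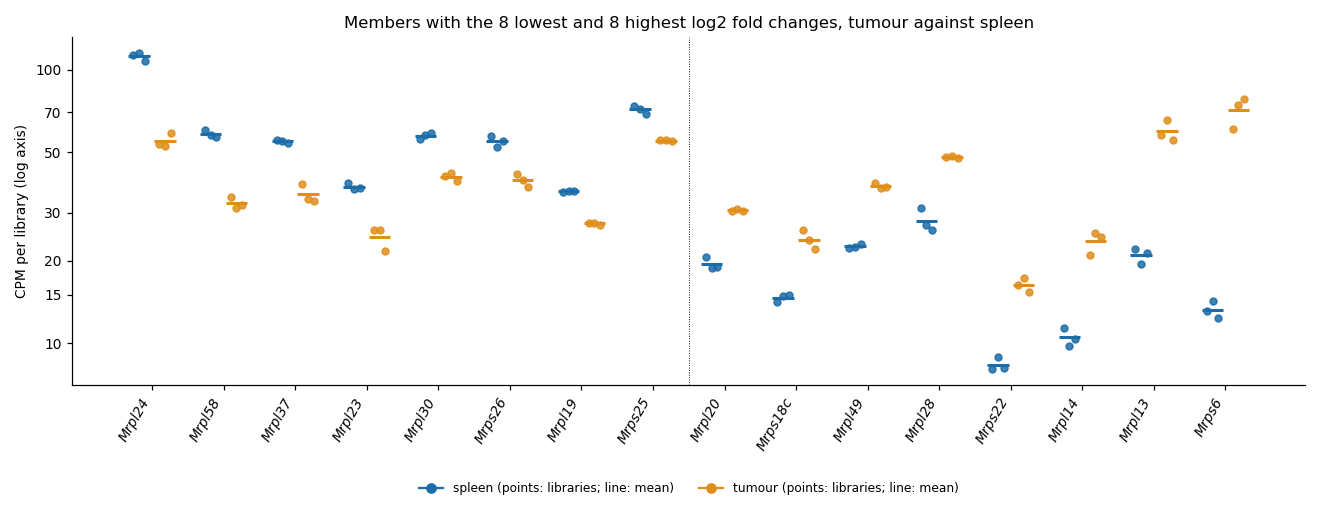
CPM per library (log axis) of the 8 members with the lowest (left) and the 8 with the highest (right) log2 fold change in tumour against spleen under TMM scaling (points, libraries; lines, group means). Mrps6 lies at 12.3 to 14.3 CPM in spleen and 60.5 to 78.4 CPM in tumour libraries, and no gene shown has overlapping groups; the 8 on the left are not lower with CD8 identity genes held constant, where Mrpl24 is at -0.04 and the others are positive.

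The subunits differed in their counts under TMM scaling, though the difference between them was not tested. Of the 51 large-subunit members 24 rose and 10 fell (47.1% and 19.6%, median log2 fold change 0.16). Of the 26 small-subunit members 7 rose and 10 fell (26.9% and 38.5%, median -0.07). Among all genes, 43.6% were called higher and 40.2% lower. With DESeq2 size factors in edgeR, 27 large-subunit members rose and 10 fell (median 0.22). Of the small-subunit members 9 rose and 7 fell there (median -0.002). With CD8 identity genes held constant, 49 large-subunit and 26 small-subunit members rose and none fell. Among the 10 small-subunit members specific to mitochondria, Mrps22 rose and 6 fell under TMM scaling, but 2 rose and 3 fell with DESeq2 size factors and all 10 rose under the CD8 scaling. By ancestry, 22 rose and 10 fell of the 46 with a bacterial counterpart (47.8% and 21.7%). Of the 31 specific to mitochondria, 9 rose and 10 fell (29.0% and 32.3%). This split was made under TMM scaling only and was not tested. With CD8 identity genes held constant, 76 of all 78 members rose and none fell (69.8% and 11.9% of all genes). Of the Mrps18 paralogs, Mrps18a and Mrps18c rose (0.54 ± 0.075 and 0.71 ± 0.087) and Mrps18b fell (-0.21 ± 0.072, SE), a fall that turned to 0.79 under the CD8 scaling. Mrpl12 and Mrps36 rose (0.37 ± 0.079 and 0.36 ± 0.084), Mrps30 and Mrpl9 were at -0.09 ± 0.059 and -0.14 ± 0.058 and did not pass (adjusted p = 0.164 and 0.0516). Mrpl24, Mrpl9 and Mrps25 had the highest mean CPM.

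The comparisons share no library, and are set side by side here. Of the 13 members that fell under ND-646, 9 (69.2%) rose in tumour, namely Mrpl11, Mrpl12, Mrpl17, Mrpl18, Mrpl28, Mrpl49, Mrpl51, Mrps11 and Mrps21, and they were 9 of the 32 that rose there. Mrpl36 fell in both under TMM scaling. Of all 3505 genes that fell under ND-646 and were tested in both, 55.2% rose in tumour. Of the 12 members that rose under ND-646, Mrpl14 and Mrps6 (16.7%, all genes 36.9%) rose in tumour and Mrpl24, Mrpl58, Mrps31 and Mrps34 (33.3%, all genes 48.0%) fell under TMM scaling. With CD8 identity genes held constant Mrpl24 and Mrpl58 passed in neither direction and the other two rose. Across the 78 members the log2 fold changes of the comparisons had Pearson's r of 0.0011 and Spearman's rho of -0.19 (all genes -0.13 and -0.14, n = 13261), as a description over genes that share libraries.

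The rest of the mitochondrial translation system is given from lists chosen by function. Of the 5 measured mitoribosome proteins with other symbols, Dap3, a GTP-binding protein of the small subunit, rose under ND-646 (0.20 ± 0.039, SE), as did Gadd45gip1 (0.15 ± 0.058), and none fell. In tumour, Ptcd3 (-0.36 ± 0.070) and Aurkaip1 (-0.14 ± 0.054) fell and none rose, while all 5 rose with CD8 identity genes held constant. With DESeq2 size factors in edgeR, only 1 of the 5 rose under ND-646 and only 1 fell in tumour. Of 25 assembly factors, 8 rose and 2 fell under ND-646. The smallest p-values were those of Mpv17l2 (-0.42 ± 0.059), the rRNA methyltransferase Nsun4 (0.33 ± 0.062) and the small-subunit assembly factor Rbfa (0.20 ± 0.044). In tumour 1 rose and 17 fell, led by Mettl17 (-1.83 ± 0.078), the GTPase Mtg2 (-1.68 ± 0.089) and the rRNA methyltransferase Mrm1 (-1.54 ± 0.092), though 12 rose and 3 fell with the CD8 scaling.

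Of 16 mitochondrial translation factors, 4 rose and 3 fell under ND-646, among them Oxa1l, which inserts new proteins into the inner membrane (0.25 ± 0.039), Lrpprc, which stabilises mitochondrial mRNA (-0.24 ± 0.042), and Guf1 (0.19 ± 0.045). In tumour 2 rose and 8 fell (11 and 1 with the CD8 scaling). The elongation factor Gfm1 rose (0.75 ± 0.056), and Gfm2, which recycles ribosomes, and Mtfmt, which formylates the initiator tRNA, fell (-1.40 ± 0.077 and -0.82 ± 0.074, or -0.41 and 0.17 with the CD8 scaling). Of 20 mitochondrial tRNA synthetases, 5 rose and 2 fell under ND-646, with Mars2 at -0.36 ± 0.054, Fars2 at 0.52 ± 0.084 and Wars2 at 0.35 ± 0.068. In tumour 1 rose and 15 fell, with Ears2 at -1.95 ± 0.090, Hars2 at -1.22 ± 0.062 and Mars2 at -1.14 ± 0.070, against 7 that rose and 2 that fell with the CD8 scaling.

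The mRNAs that the mitoribosome translates, and regulators of nuclear genes for mitochondria, were followed in the same way. Of 13 mitochondrially encoded mRNAs, 11 fell under ND-646 (median log2 fold change -0.94) and 11 fell in tumour (median -0.43), where 12 rose with the CD8 scaling. Nuclear subunits of the respiratory chain must be matched by the proteins made from those mRNAs, which were not measured. The mRNAs of these nuclear subunits fell in 27 and rose in 2 of 42 cases under ND-646. In tumour they rose in 32 and fell in 5 (42 and 0 with the CD8 scaling). Of 13 regulators of nuclear genes for mitochondria, 2 rose and 7 fell under ND-646, among them the nuclear receptor Esrra (-0.32 ± 0.048), Gabpb2, a partner of GABPA (-0.44 ± 0.061), and Myc (-0.30 ± 0.048). In tumour 1 rose and 7 fell, with the coactivator Ppargc1b at -2.52 ± 0.12, Esrra at -1.12 ± 0.059 and the mitochondrial RNA polymerase Polrmt at -0.99 ± 0.053 (9 rose and 1 fell with the CD8 scaling). Mitochondrial chaperones and proteases rose in 5 and fell in 3 of 11 cases under ND-646, and rose in 6 and fell in 4 in tumour (11 and 0).

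Cytosolic ribosomal proteins, the counterpart in the cytosol, rose in 29 and fell in 23 of 80 cases under ND-646. In tumour 1 rose and 76 fell of 79 (median -0.77), but 38 rose and 3 fell with the CD8 scaling. Cell cycle genes fell in 35 of 36 cases under ND-646 (median -0.84) and rose in 36 of 36 in tumour (median 3.10, also 36 with the CD8 scaling). CD8 T cell identity genes rose in 7 and fell in 7 of 17 cases under ND-646 and fell in all 17 in tumour (median -0.96). The CD8 scaling holds the mean log count of this list constant by design, and under it 6 of the 17 rose and 5 fell in tumour. The part of the cell cycle and of cell mixture in the values of the mitoribosomal genes was not tested.

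**Figure D5:**
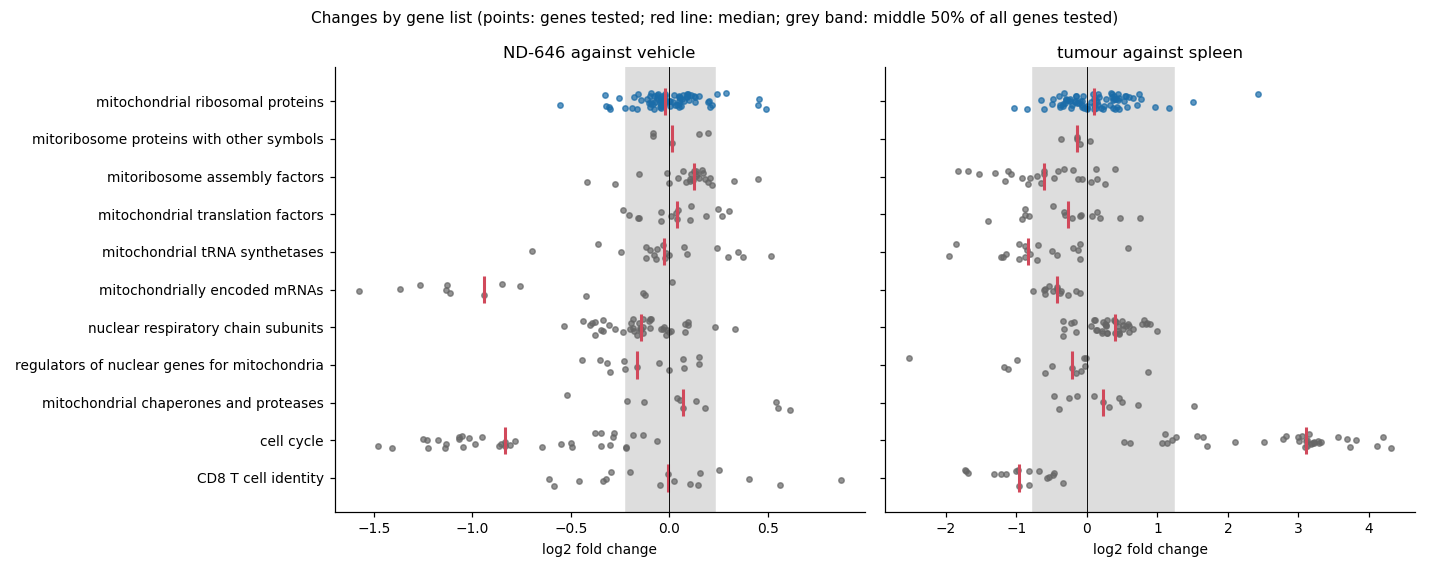
Log2 fold changes of the genes tested in each list (points), their median (red line) and the middle 50% of all genes tested (grey band), for ND-646 against vehicle (left) and tumour against spleen under TMM scaling (right). The members (blue) centre at -0.02 and 0.10, while mitochondrially encoded mRNAs centre at -0.94 and -0.43 and cell cycle genes at -0.84 and 3.10; with CD8 identity genes held constant the median of all genes in the right panel moves up by 0.98.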

How the data were processed

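RNA was sequenced from 14 libraries, 4 each of the vehicle and ND-646 cultures and 3 each of spleen and tumour, grouped by their titles. Per the labels' protocols, libraries were poly(A)-selected with a directional kit. For each of the 2 experiments the authors deposited a table of estimated counts by gene symbol. STAR, Salmon and DESeq2 are named in the submitters' processing notes with no version. The genome build, the annotation and the strand setting are not stated in the sources used here. Column totals differ, so the values were read as raw, and were rounded to whole numbers (9.16% and 9.15% of values were not whole, tolerance 1e-06). Estimated counts divide reads among near-identical stretches by a model, which can blur members that share such stretches with other genes.

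The mitoribosomal genes, the 19 gene lists, the promoters, the neighbours and the tests were chosen with earlier results of these data known. Each table was fitted alone with edgeR 4.0.16 in R 4.3.3, scaled by TMM and filtered by filterByExpr. Calls use its robust quasi-likelihood test at a Benjamini-Hochberg adjusted p of 0.05 over all genes. The SE is the log2 fold change over the root of F. CPM are counts per 1e+06 of the TMM-scaled library, and values per kb divide them by the median length of coding transcripts in GENCODE M21 (GRCm38). The fits were tested on simulated counts; with gene-wise dispersions the tumour test called more unchanged genes than its nominal rate, and with trended dispersions it did not. Members named in the text are, per comparison, the 8 highest and 8 lowest log2 fold changes, members called against the more frequent direction, the 3 of highest mean CPM, the Mrps18 paralogs, Mrpl12, Mrps30 and Mrps36, and from related lists the 3 smallest p-values. Near-identical stretches of members in other genes were found with blastn 2.17.0+. Alternatives were DESeq2 1.42.0, its size factors in edgeR, scaling to 17 CD8 identity genes (0.5 added to counts), limma-voom (limma 3.58.1), no low-count filter, at least 10 counts in every library, a replicate block and leaving out each library. The 2 fits without a pair of ND-646 libraries were added after seeing the data.

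Whether replicates are separate mice or cultures is not stated in the labels, and p-values therefore reflect only how far these libraries spread, which may be technical. Libraries of a group differed by more than sampling noise. The precision of all values covers counting error and that spread only.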

Additional observations from a re-analysis of the deposited data

Results flagged for a closer look

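In 3 cases 1 of 4 libraries stood far from its group in a named member. Mrpl15 was lowest in vehicle library 4, at 49.8 CPM, where the other vehicle libraries were at 54.2 to 54.8 CPM. Mrps18a was highest in vehicle library 2, at 30.2 CPM, with the others at 27.3 to 27.5 CPM. Mrpl9 was lowest in ND-646 library 3, at 65.9 CPM, with the others at 69.2 to 69.7 CPM. Chance gives such a gap in about 1 in 20 groups of this size. Every member named for ND-646 was searched in both the vehicle and the ND-646 group, so a few such gaps can arise by chance. Without vehicle library 4, Mrpl15 did not pass under ND-646 (log2 fold change 0.10, edgeR adjusted p = 0.0982).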

How the results depend on the processing

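The scaling decided the tumour counts: with CD8 identity genes held constant, 76 members rose and 0 fell, in place of 32 and 20. Under this scaling 32 members turned from negative to positive, 19 called and 13 not called under TMM (these 13 came to 0.742 to 0.984). Among them, the members named for tumour had log2 fold changes of Mrpl58 0.14, Mrpl37 0.34, Mrpl23 0.38, Mrpl30 0.49, Mrps26 0.51, Mrpl19 0.60, Mrps25 0.61, Mrps5 0.61, Mrps9 0.65, Mrps35 0.65, Mrpl57 0.66, Mrpl44 0.68, Mrpl10 0.69, Mrps17 0.70, Mrpl36 0.72, Mrps31 0.74, Mrps15 0.76, Mrps18b 0.79, Mrps34 0.82, Mrpl9 0.84 and Mrps30 0.90. Under ND-646 it gave 17 and 11. The other planned settings, left-out libraries aside, gave 31 to 38 members that rose and 15 to 20 that fell in tumour, and 9 to 13 and 12 to 13 under ND-646. Without ND-646 libraries 1 and 4 the counts under ND-646 were 7 and 20, a setting chosen after seeing the data, and without 2 and 3 they were 17 and 10. Leaving out each library gave 8 to 15 members that rose and 10 to 15 that fell under ND-646, and 28 to 35 and 14 to 19 in tumour. Values near 0 also changed sign under ND-646, Mrps30 to 0.000197 with the CD8 scaling and 0.0173 without ND-646 libraries 2 and 3 (-0.0540 to 0.00293 leaving out single libraries), and Mrps36 to 0.00322 without ND-646 libraries 2 and 3. Same-numbered libraries did not deviate together (r from -0.15 to 0.06), so the numbers were not taken as pairs, and with the replicate number as a block 13 members rose and 13 fell under ND-646, and 31 and 20 in tumour, where Mrpl3 (log2 fold change 0.16, edgeR adjusted p = 0.0591) was among those lost. The causes of these differences were not tested. The lowest member averaged 11.2 CPM over a comparison, against a floor of at most 0.154 CPM, so depth did not keep any member out of the tests.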

Other observations

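The letters CCGGAAG stood in the promoters of 25 of 61 cytosolic ribosomal protein genes (41.0%), close to their share among the mitoribosomal genes, and in 5 of 31 nuclear genes of the respiratory chain (16.1%). AAGATGGCG stood in 3 (4.92%) and 4 (12.9%) of the same genes. These shares are descriptions and were not tested.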
